A study of Mus musculus with 6 samples.

Results

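The nucleolar ribosome biogenesis factors described here are 58 proteins that make, modify and fold ribosomal RNA or assemble it with ribosomal proteins. They were chosen by gene symbol: a row of the expression table belonged to the set when its gene was on a list of such factors. All 58 had a row among the 32973 genes of the table, and all 58 were among the 12336 genes that were tested because their mean over the libraries reached 1 FPKM (fragments per kilobase of transcript, scaled to the mapped fragments of the library). RNA was sequenced from mouse skeletal muscle stem cells, sorted by flow cytometry and grown for 3 days in serum medium with bFGF. The 3 Med23KO libraries came from cells with floxed Med23 alleles and the Pax7CreERT2 allele, which drives a tamoxifen-inducible Cre recombinase from the Pax7 locus of muscle stem cells. The 3 Ctrl libraries came from cells with the same floxed Med23 alleles, and their genotype label names no Cre. Loss of Med23, a subunit of the Mediator complex that connects transcription factors to RNA polymerase II, and the presence of Cre therefore cannot be told apart. The treatment label read none for every library, and tamoxifen dosing is not given in the sources used here. Whether libraries of a group came from separate animals is not stated in the labels, so the p-values measure the spread between libraries only.

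Ribosome production starts in the nucleolus, where RNA polymerase I transcribes a long precursor that holds most of the ribosomal RNA. Small nucleolar RNPs (snoRNPs) of the box C/D class methylate riboses in this precursor and those of the box H/ACA class turn uridines into pseudouridines. The small-subunit processome then folds and cuts the part that becomes the small subunit, while a separate series of factors assembles the large subunit. In muscle stem cells, ribosome production is known to go up when quiescent cells are activated and start to divide, and MYC is a known transcriptional activator of many of these genes.

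Med23 itself was measured at 5.10, 5.86 and 4.23 FPKM in the Med23KO libraries, against 10.4, 11.7 and 10.2 FPKM in the Ctrl libraries. The groups did not overlap, and Med23 was lower in Med23KO, with a log2 fold change of -0.96 on the log2(FPKM + 1) scale (SE 0.133, adjusted p = 0.0197 in limma), a call that in fits without 1 library held only without Med23KO replicate 3 (limma adjusted p between 0.00869 and 0.108 over the 6 fits). Depth per library is unknown, since the table holds no counts. FPKM sums were 599738 to 675095 in Med23KO and 697886 to 746973 in Ctrl, and without Rmrp, a noncoding RNA that took 173041 to 205244 FPKM in Med23KO and 225416 to 239590 FPKM in Ctrl, they were 426697 to 476046 in Med23KO and 468565 to 507383 in Ctrl. The muscle stem cell genes Pax7, Myf5 and Myod1 were present in every library.

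Of the 58 factors, 11 were lower in Med23KO at a limma adjusted p under 0.05 and 0 were higher, where 1.42% of all tested genes were called lower and 1.49% were called higher. At an unadjusted limma p under 0.05, 44 factors were lower and 0 were higher, where 10.9% of tested genes were lower and 8.84% were higher. The 11 were the polymerase subunit Polr1b, the snoRNP proteins Fbl, Nhp2, Gar1 and Nolc1, the nucleolar protein Mybbp1a, the late small-subunit factor Rrp12 and the large-subunit factors Nop2, Rrp1b, Rrs1 and Noc2l. In 39 factors every Med23KO library was below every Ctrl library, which was so for 14.7% of tested genes. The log2 fold change was negative for 57 factors and for 54.9% of tested genes, and Imp3 was the exception. Its median over the factors was -0.46, with a range of -0.76 to 0.07, against a median of -0.03 over all tested genes. The factors also lay close together, with an SD of log2 fold changes of 0.159 among them and of 0.353 among all tested genes. It was 0.153 among the 131 other ribosome biogenesis genes described below. As a share of the Ctrl mean, the Med23KO mean of a factor had a median of 71.5% and ran from 57.6% for Gar1 to 107% for Imp3. The authors' deposited table, which comes from Cuffdiff, had 43 factors lower at a q under 0.05, where 7.27% of the tested genes were. In these bulk libraries, fewer cells with high ribosome production and less RNA of these genes per cell cannot be told apart.

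The number of calls changed when any 1 library was left out. Such a fit also estimates the spread from fewer libraries, and this was not told apart from the part of the library itself. The number was 0 without Med23KO replicate 1, 0 without Med23KO replicate 2, 34 without Med23KO replicate 3, 0 without Ctrl replicate 1, 0 without Ctrl replicate 2 and 1 without Ctrl replicate 3. Over all tested genes, 39, 10, 395, 46, 17 and 45 were called lower in these fits, in the same order, against 175 with all libraries. In those 4 limma fits with 0 calls, 32 to 43 factors were still lower at an unadjusted p under 0.05. All 11 called factors passed without Med23KO replicate 3, where 3.2% of all tested genes were called lower, and only Gar1 passed in a further fit, the one without Ctrl replicate 3. The median log2 fold change over the 58 factors stayed between -0.51 and -0.41 in these 6 fits. With no filter on low values 7 of the 11 were called, and with the FPKM sums without Rmrp set equal 6 were. Exons of Mybbp1a, Nhp2, Noc2l and Rrp1b overlap a gene on the opposite strand, and whether fragments were counted by strand is unknown.

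**Figure D1:**
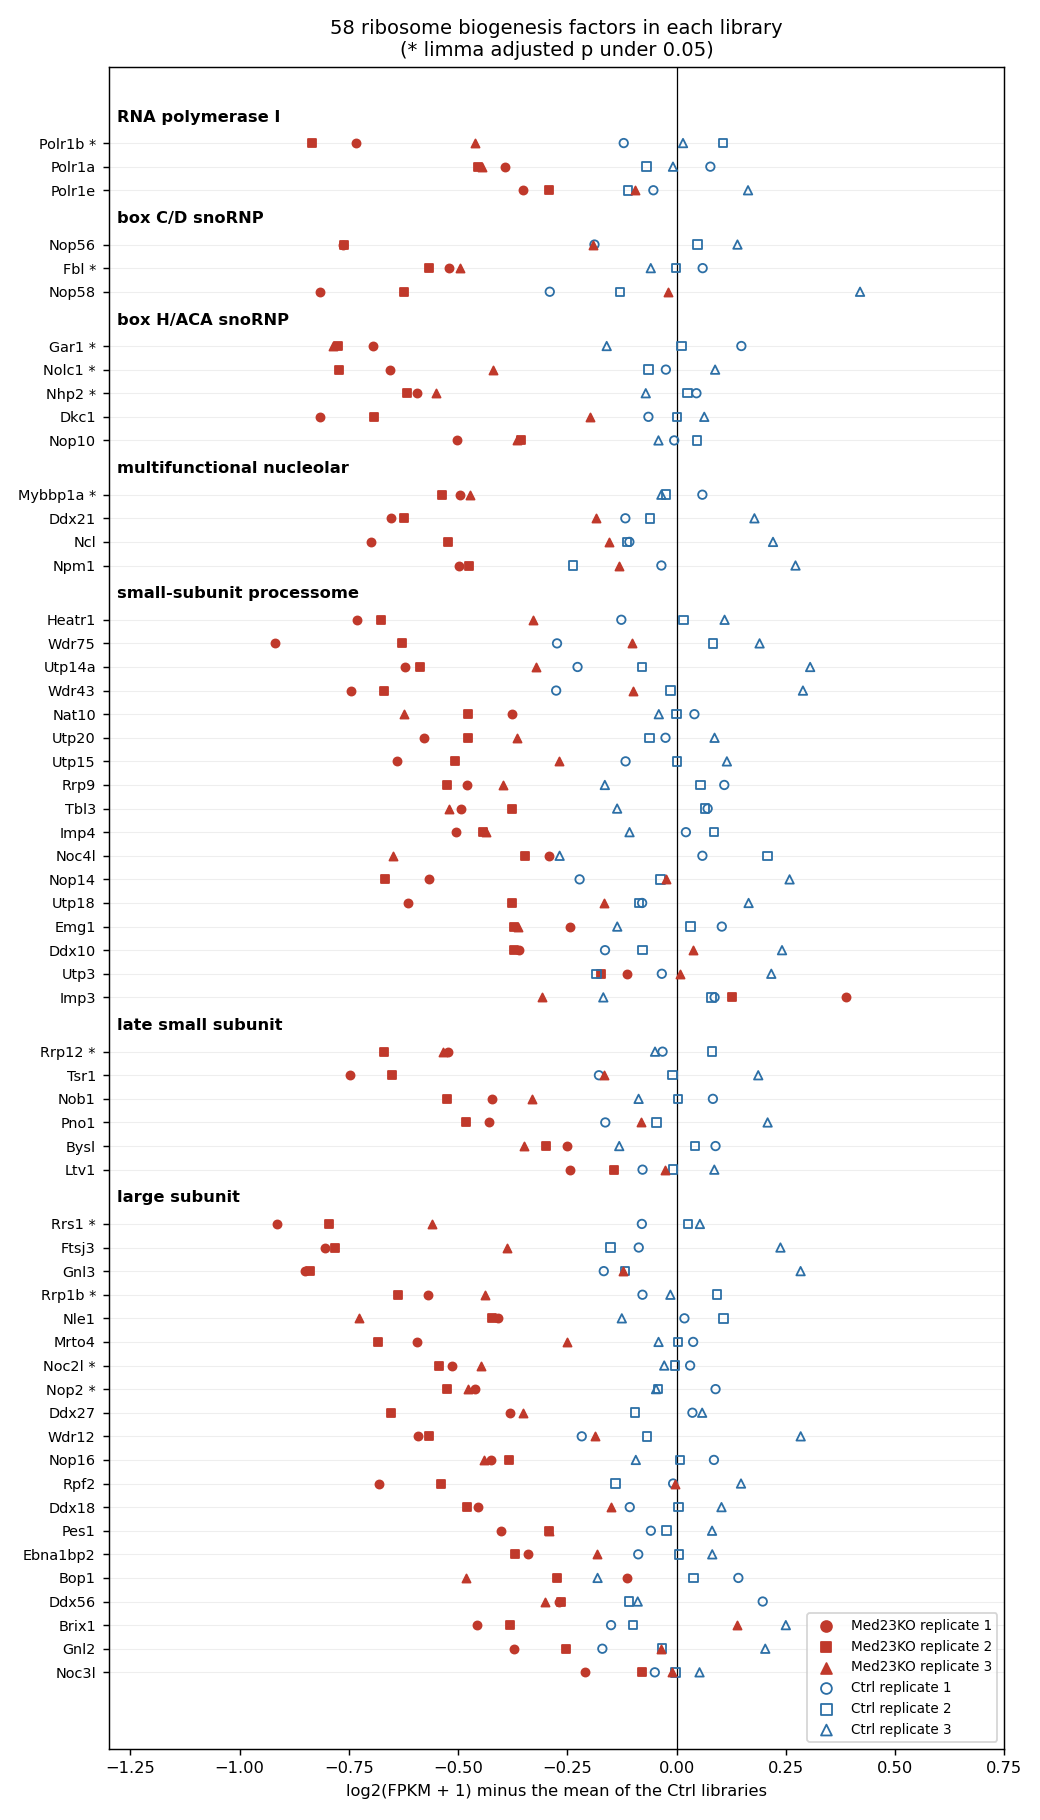
Each row is 1 of the 58 factors, grouped by role, and each point is 1 library, plotted as log2(FPKM + 1) minus the mean of the 3 Ctrl libraries (filled red, Med23KO; open blue, Ctrl; circle, square and triangle for replicates 1, 2 and 3). An asterisk marks a limma adjusted p under 0.05, reached by 11 factors, and in 39 rows all red points lie left of all blue points.

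**Figure D2:**
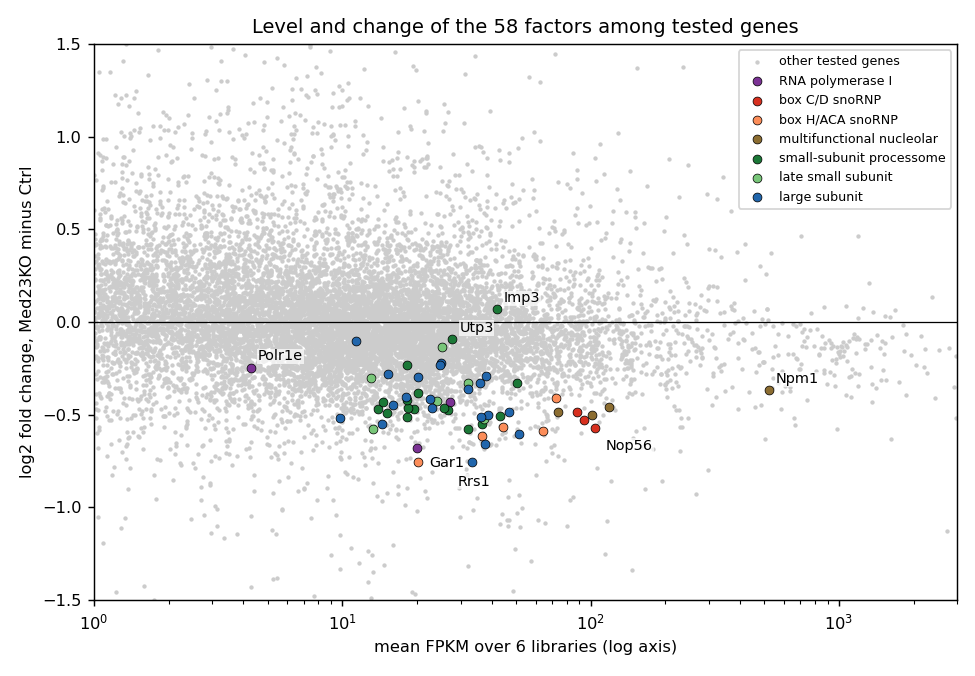
Mean FPKM over the 6 libraries (log axis) against the log2 fold change of Med23KO minus Ctrl for each tested gene (grey; genes beyond the axes are not drawn) and for the 58 factors (coloured by role). The factors form a narrow band with a median of -0.46, below the median of all tested genes at -0.03, and 41 of them have a mean of at least 20 FPKM.

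Most of the set was well expressed, with 41 of 58 averaging at least 20 FPKM, and its fold changes were of moderate size. A log2 fold change at or below the factors' median was found in 574 tested genes, or 4.65%. Below the lowest factor, Rrs1, lay 153 tested genes, or 1.24%.

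Since most factors shared a direction, the DNA before their transcription starts was searched for motifs bound by factors known to act on such genes. RefSeq promoters (build GRCm38.p6, 250 bases before to 50 after the start) matched 51 of the 58 by symbol, not Bop1, Fbl, Gnl2, Npm1, Rrp12, Rrs1 or Tbl3. Some genes, such as Noc2l and Rrp1b, had several annotated starts. A gene was counted once if any of its windows held the motif, so more starts gave more room for a match. The letters CACGTG, an E-box bound by MYC and by related proteins, read the same on both strands. They were found in 12 of the 51 genes (23.5%), against 14.7% of 102 other ribosome biogenesis genes with a promoter, 12.3% of the 8720 tested genes with a promoter and 8.09% of all 27025 genes of the promoter table. Within the 250 bases before the start, however, they were in 4 of 51 (7.84%), against 9.80% of the other ribosome biogenesis genes, 10.4% of tested genes and 6.86% of all genes. Most of the sites, 9 of 12, lay within the first 50 bases after the start. The 12 sites are shown with up to 10 bases on each side, 5′ to 3′ on the strand of the gene and with the E-box in capitals, to show the bases around the motif:
Imp4 (chr1:34439698-34439723, plus strand): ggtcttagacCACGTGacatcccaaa
Nop2 (chr6:125131813-125131838, plus strand): gtccctggatCACGTGtgttccggtg
Utp18 (chr11:93885771-93885796, minus strand): gagcgccggtCACGTGgcttgcggcg
Ltv1 (chr10:13193094-13193119, minus strand): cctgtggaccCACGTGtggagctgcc
Mybbp1a (chr11:72441357-72441376, plus strand): cttctgagccCACGTGtttg
Nle1 (chr11:82908357-82908382, minus strand): ggttctcctcCACGTGgggacgcagg
Pes1 (chr11:3963967-3963992, plus strand): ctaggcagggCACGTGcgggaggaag
Pno1 (chr11:17211540-17211562, minus strand): tacaaccacgCACGTGttcctct
Rpf2 (chr10:40246990-40247015, minus strand): gtaatcggtaCACGTGcattcgctaa
Tsr1 (chr11:74898094-74898119, plus strand): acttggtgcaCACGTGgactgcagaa
Utp20 (chr10:88826765-88826787, minus strand): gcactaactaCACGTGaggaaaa
Wdr43 (chr17:71616222-71616247, plus strand): cccgggcgaaCACGTGgctgccgcgg
The first 3 of these lie before the start, 121 bases before it in Imp4, 60 in Nop2 and 20 in Utp18, and the other 9 lie after it, between 3 bases after it in Pes1 and 41 in Mybbp1a. The Rpf2 site also lies before a further annotated start of that gene. Among the 8 called factors with a promoter in the table, Nop2 and Mybbp1a were the ones with an E-box in the window.

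The core CGGAAG, bound by factors of the ETS family and searched on both strands, was more frequent. It was in 30 of the 51 genes (58.8%), against 68.6% of the other ribosome biogenesis genes, 36.8% of tested genes and 18.8% of all genes. Within the 250 bases before the start it was in 22 of 51 (43.1%), against 57.8% of the other ribosome biogenesis genes, 30.3% of tested genes and 15.3% of all genes. A motif bound by NRF1 was also searched and was in 1 of the 51 genes, Pno1 (1.96%), against 2.94% of the other ribosome biogenesis genes, 2.45% of tested genes and 1.07% of all genes. Before the start it was in 0 of the 51, against 1.98% of tested genes. By their letters, an E-box and this core cannot overlap. The 250 bases before the start are shown for Nop2, the called factor with an E-box there, and for Gar1, the factor with the lowest share of its Ctrl level, 5′ to 3′ on the strand of the gene, with the E-box and the ETS core, in either direction, in capitals:
Nop2 (chr6:125131633-125131882, plus strand): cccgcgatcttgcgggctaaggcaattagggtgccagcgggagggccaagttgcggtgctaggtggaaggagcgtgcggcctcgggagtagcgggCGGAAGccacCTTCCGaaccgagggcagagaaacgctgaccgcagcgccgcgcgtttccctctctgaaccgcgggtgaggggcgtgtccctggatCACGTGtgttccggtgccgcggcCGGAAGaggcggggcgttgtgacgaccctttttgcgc
Gar1 (chr3:129831397-129831646, minus strand): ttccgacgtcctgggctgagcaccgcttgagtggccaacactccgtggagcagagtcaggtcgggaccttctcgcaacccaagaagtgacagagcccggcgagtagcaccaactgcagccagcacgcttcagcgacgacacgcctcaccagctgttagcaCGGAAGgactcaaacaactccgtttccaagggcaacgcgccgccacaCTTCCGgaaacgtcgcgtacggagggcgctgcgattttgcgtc
In Nop2 the CGGAAG cores lie 155, 145 and 37 bases before the start and the E-box lies among them at 60, and in Gar1 the cores lie 90 and 43 bases before it. A match of letters is a description of the sequence, and binding at these sites was not measured in these libraries.

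RNA polymerase I was represented by 3 of its subunits. Polr1b, the second-largest subunit, which forms the catalytic centre together with Polr1a, was measured at 14.5, 13.4 and 17.7 FPKM in Med23KO and at 22.7, 26.8 and 25.1 FPKM in Ctrl. Every Med23KO library was below every Ctrl library, the means were 15.2 ± 2.23 FPKM in Med23KO and 24.8 ± 2.03 FPKM in Ctrl (SD, n = 3 each), and the log2 fold change was -0.68 (SE 0.128, adjusted p = 0.0385 in limma). Polr1a, the largest subunit, stood at 23.5, 22.5 and 22.6 FPKM in Med23KO and 32.9, 29.6 and 30.97 FPKM in Ctrl. These groups did not overlap either, and the libraries of each lay close together, but the log2 fold change of -0.43 (SE 0.0899) was just outside the threshold (adjusted p = 0.0522 in limma). Polr1e, the homologue of a yeast subunit that helps the enzyme to initiate and elongate, was the least abundant of the 58, with 3.48, 3.66 and 4.34 FPKM in Med23KO and 4.51, 4.29 and 5.397 FPKM in Ctrl. Med23KO replicate 3 was above Ctrl replicate 2, so the groups overlapped, and the log2 fold change was -0.25 (adjusted p = 0.371 in limma). Of the 3 subunits, 1 was called, and the median log2 fold change was -0.43.

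The 8 snoRNP proteins held 4 of the 11 calls, and 7 of the 8 had every Med23KO library below every Ctrl library. Their median log2 fold change was -0.57. Whether the snoRNP proteins differ from the other roles was not tested.

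In the box C/D particle, Fbl (fibrillarin, the methyltransferase that places the ribose methyl groups) was measured at 77.3, 74.8 and 78.7 FPKM in Med23KO and at 116, 111 and 107 FPKM in Ctrl. No Med23KO library came near the Ctrl libraries, the means were 77.0 ± 1.99 FPKM in Med23KO and 111 ± 4.63 FPKM in Ctrl (SD, n = 3 each), and the log2 fold change was -0.53 (SE 0.0824, adjusted p = 0.0243 in limma). Fbl shares at least 200 transcript bases at 95% identity or more with an annotated pseudogene, so reads could have been divided between them. Nop56, which also has such a pseudogene and which with its relative Nop58 forms the scaffold of the particle, had 72.3, 72.4 and 108 FPKM in Med23KO and 108, 128 and 136 FPKM in Ctrl. Med23KO replicate 3 reached almost the level of Ctrl replicate 1 without passing it, and the log2 fold change of -0.57 missed the threshold (SE 0.174, adjusted p = 0.131 in limma). Nop58 stood at 56.5, 64.6 and 98.8 FPKM in Med23KO and 81.7, 91.5 and 134 FPKM in Ctrl. Replicate 3 was the highest library of each genotype by a wide margin, the groups overlapped, and the log2 fold change was -0.49 (SE 0.248, adjusted p = 0.340 in limma).

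Of the 5 proteins listed with the box H/ACA particle, among them the chaperone Nolc1, 3 were lower in Med23KO at a limma adjusted p under 0.05. All 5 had every Med23KO library below every Ctrl library. The median log2 fold change was -0.59, and the median share of the Ctrl mean was 66.1%. Gar1, a core protein of the particle, was measured at 15.4, 14.6 and 14.4 FPKM in Med23KO and at 28.5, 25.8 and 22.8 FPKM in Ctrl. The Med23KO libraries were alike and all below the lowest Ctrl library, with means of 14.8 ± 0.546 FPKM in Med23KO and 25.7 ± 2.84 FPKM in Ctrl (SD, n = 3 each) and a log2 fold change of -0.75 (SE 0.110, adjusted p = 0.0210 in limma). Nhp2, another core protein, had 50.8, 49.9 and 52.3 FPKM in Med23KO and 79.6, 78.4 and 73.4 FPKM in Ctrl. Both groups were tight and far apart, and the log2 fold change was -0.59 (SE 0.0838, adjusted p = 0.0199 in limma), the lowest adjusted p of the 58. Nolc1, a chaperone that binds snoRNPs on their way to the nucleolus, stood at 27.9, 25.6 and 33.0 FPKM in Med23KO and 43.7, 42.5 and 47.3 FPKM in Ctrl. All Med23KO libraries were lower, with a log2 fold change of -0.62 (SE 0.116, adjusted p = 0.0385 in limma).

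The other 2 proteins of the particle were not called, although their groups did not overlap. Dkc1 (dyskerin, the pseudouridine synthase of the particle) had 29.6, 32.3 and 45.8 FPKM in Med23KO and 50.4, 52.8 and 55.2 FPKM in Ctrl. Here Med23KO replicate 3 stood well above the other Med23KO libraries (log2 fold change -0.57, SE 0.162, adjusted p = 0.112 in limma). Nop10, the smallest core protein, stood at 57.9, 64.2 and 63.8 FPKM in Med23KO and 82.1, 85.2 and 80.1 FPKM in Ctrl. Its groups were far apart relative to their spread, with a log2 fold change of -0.41 and a limma adjusted p of 0.0560.

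Of 4 abundant nucleolar proteins with several roles, 1 was called and the median log2 fold change was -0.47. Mybbp1a, a Myb-binding protein of the nucleolus with roles in ribosomal RNA transcription and processing, was measured at 83.9, 81.5 and 85.3 FPKM in Med23KO and at 124, 117 and 116 FPKM in Ctrl. The Med23KO libraries were close to each other and all lower, with means of 83.6 ± 1.92 FPKM in Med23KO and 119 ± 4.31 FPKM in Ctrl (SD, n = 3 each) and a log2 fold change of -0.50 (SE 0.0809, adjusted p = 0.0271 in limma). Npm1 (nucleophosmin, a histone and ribosome assembly chaperone) was the most abundant of the 58, at 412, 419 and 531 FPKM in Med23KO and 569, 494 and 704 FPKM in Ctrl. Med23KO replicate 3 was above Ctrl replicate 2, so the groups overlapped (log2 fold change -0.37, adjusted p = 0.253 in limma). Ncl (nucleolin, an RNA-binding protein of the nucleolus) had 83.4, 94.3 and 122 FPKM in Med23KO and 126, 126 and 159 FPKM in Ctrl. Ddx21, an RNA helicase, like Npm1 with a near-identical pseudogene, had 54.4, 55.6 and 75.7 FPKM in Med23KO and 79.4, 82.5 and 97.6 FPKM in Ctrl. Neither of these 2 overlapped between the genotypes, replicate 3 was the highest library of each genotype in both, and their log2 fold changes of -0.46 and -0.49 were not called (adjusted p = 0.175 in limma for Ncl and 0.135 for Ddx21).

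The 17 factors of the small-subunit processome gave 0 calls in limma, with 13 lower at an unadjusted p under 0.05 and 13 lower in the authors' deposited table at a q under 0.05. In a limma fit with a replicate block 15 of the 17 were called, where 12.8% of tested genes were called lower. Whether the replicate numbers pair the libraries is not settled. The median log2 fold change was -0.46, the same as that of all 58 factors, and 11 of the 17 had every Med23KO library below every Ctrl library. Heatr1, which acts in the processome and in ribosomal RNA transcription, had the most negative value of them, with 22.8, 23.7 and 30.4 FPKM in Med23KO and 35.2, 38.9 and 41.6 FPKM in Ctrl. The groups did not overlap, and the log2 fold change was -0.58 (SE 0.133, adjusted p = 0.0666 in limma). Imp4, which binds the U3 snoRNP together with Imp3, had 14.9, 15.5 and 15.6 FPKM in Med23KO and 21.8, 22.9 and 19.9 FPKM in Ctrl (log2 fold change -0.46, adjusted p = 0.0530 in limma). Nat10, an RNA acetyltransferase, and Utp20, a large scaffold protein, were as close to the threshold, with log2 fold changes of -0.49 and -0.47 (adjusted p = 0.0533 in limma for Nat10 and 0.0534 for Utp20). The U3-binding protein Rrp9 and the scaffold protein Tbl3 had log2 fold changes of -0.47 and -0.46 and limma adjusted p of 0.0689 and 0.0612.

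Another 4 processome factors, Wdr43 and Wdr75 of the subcomplex that loads first in yeast, Nop14 and the helicase Ddx10, had groups that overlapped, with Med23KO replicate 3 inside the Ctrl range and log2 fold changes between -0.55 for Wdr75 and -0.23 for Ddx10. Utp14a, whose yeast relative activates a helicase of the processome, the scaffold proteins Utp15 and Utp18, Noc4l, the partner of Nop14, and the methyltransferase Emg1 had groups that did not overlap and log2 fold changes between -0.51 for Utp14a and -0.33 for Emg1, none of them called. At the other end were Utp3 and Imp3. Utp3 had 26.3, 25.1 and 28.7 FPKM in Med23KO and 27.8, 25.0 and 33.3 FPKM in Ctrl, 2 groups that overlapped fully (log2 fold change -0.09, adjusted p = 0.750 in limma), and its sign turned with the scaling that equalised the FPKM sums and without Ctrl replicate 3. Imp3, the partner of Imp4, had 53.1, 44.1 and 32.4 FPKM in Med23KO and 42.9, 42.7 and 35.8 FPKM in Ctrl. Like Fbl, Imp3 has a near-identical pseudogene, so reads could have been divided between them. Its Med23KO libraries spanned the whole Ctrl range (log2 fold change 0.07, SE 0.180, adjusted p = 0.885 in limma), and its sign turned without Med23KO replicate 1 and without Ctrl replicate 3.

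The 6 late small-subunit factors, which act on the pre-ribosome as it leaves the nucleolus, had a median log2 fold change of -0.38 and 1 call. Rrp12, a repeat protein known in yeast for the export of both subunits, was measured at 10.9, 9.78 and 10.8 FPKM in Med23KO and at 15.8, 17.1 and 15.6 FPKM in Ctrl. No library of one group came near the other, with means of 10.5 ± 0.637 FPKM in Med23KO and 16.2 ± 0.854 FPKM in Ctrl (SD, n = 3 each) and a log2 fold change of -0.58 (SE 0.10, adjusted p = 0.0317 in limma). Nob1, the endonuclease that trims the small-subunit RNA to its mature end, had 20.3 ± 1.45 FPKM in Med23KO and 27.7 ± 1.69 FPKM in Ctrl (SD, n = 3 each), with no overlap and a log2 fold change of -0.43 (adjusted p = 0.0701 in limma). Its partner Pno1 had 28.3 ± 4.58 FPKM in Med23KO and 35.7 ± 4.93 FPKM in Ctrl (SD, n = 3 each), with overlap (log2 fold change -0.33, adjusted p = 0.270 in limma). Tsr1, a GTPase-like protein that blocks early translation in yeast, and Bysl, the relative of a yeast factor that stays on the pre-ribosome until late, had log2 fold changes of -0.52 and -0.30, with overlap in Tsr1 and none in Bysl. Ltv1, an assembly factor that leaves before the subunit matures, stood at 22.2, 23.9 and 25.96 FPKM in Med23KO and 25.0, 26.3 and 28.1 FPKM in Ctrl, the smallest difference of the 6 and one with overlap (log2 fold change -0.14, adjusted p = 0.527 in limma).

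The 20 large-subunit factors gave 4 calls, a median log2 fold change of -0.43 and 13 members with every Med23KO library below every Ctrl library. Rrs1, which with Rpf2 brings the 5S RNP into the large subunit, had the most negative value of all 58, with 21.9, 23.9 and 28.3 FPKM in Med23KO and 39.8, 42.9 and 43.8 FPKM in Ctrl. The groups were far apart, with means of 24.7 ± 3.27 FPKM in Med23KO and 42.2 ± 2.07 FPKM in Ctrl (SD, n = 3 each) and a log2 fold change of -0.76 (SE 0.116, adjusted p = 0.0233 in limma). Nop2, a cytosine methyltransferase of the large-subunit RNA whose promoter is shown above, had 39.5, 37.7 and 39.0 FPKM in Med23KO and 58.2, 53.1 and 52.9 FPKM in Ctrl. Both groups were tight, and the log2 fold change was -0.49 (SE 0.0874, adjusted p = 0.0344 in limma). Noc2l, the mouse relative of a yeast factor that escorts pre-ribosomes, had 31.6, 30.97 and 33.1 FPKM in Med23KO and 46.6, 45.5 and 44.7 FPKM in Ctrl, again with no overlap (log2 fold change -0.50, SE 0.0844, adjusted p = 0.0297 in limma). Rrp1b, a nucleolar protein related to a yeast processing factor, had 11.3, 10.7 and 12.5 FPKM in Med23KO and 16.3, 18.4 and 17.1 FPKM in Ctrl, with every Med23KO library lower (log2 fold change -0.55, SE 0.105, adjusted p = 0.0410 in limma).

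Of the other large-subunit factors, Ftsj3, Gnl3, Nle1 and Mrto4 had fold changes as large as called ones but a wider spread between libraries. The rest had smaller fold changes, some of them with a spread as narrow as that of the called factors. Ftsj3, an RNA methyltransferase, had 25.9, 26.3 and 34.9 FPKM in Med23KO and 43.2, 41.3 and 54.4 FPKM in Ctrl. The groups did not overlap, and replicate 3 was again the highest library of each genotype (log2 fold change -0.66, SE 0.155, adjusted p = 0.0702 in limma). Gnl3 (nucleostemin, a nucleolar GTPase abundant in stem cells) had 33.4, 33.6 and 55.9 FPKM in Med23KO and 54.2, 56.1 and 74.4 FPKM in Ctrl. Med23KO replicate 3 lay inside the Ctrl range, and the log2 fold change was -0.60 (SE 0.220, adjusted p = 0.187 in limma). The 3 proteins of the PeBoW complex, which acts in large-subunit RNA processing, had log2 fold changes of -0.33 for Pes1, -0.29 for Bop1 and -0.45 for Wdr12, and of these Pes1 alone had groups that did not overlap. The helicases Ddx18, Ddx27 and Ddx56 had log2 fold changes of -0.36, -0.46 and -0.28 with no overlap. Nle1, whose yeast relative is a substrate of a remodelling ATPase, Mrto4, a relative of a ribosomal stalk protein, and the assembly factor Nop16 had log2 fold changes of -0.52, -0.51 and -0.42 with no overlap. Ebna1bp2, an assembly factor, had -0.30 with no overlap, and Rpf2, its relative Brix1 and the GTPase Gnl2 had -0.41, -0.23 and -0.22 with overlap. Noc3l had the smallest difference of the 20, at 10.1, 11.1 and 11.7 FPKM in Med23KO and 11.4, 11.8 and 12.3 FPKM in Ctrl, with overlap (log2 fold change -0.10, adjusted p = 0.653 in limma).

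**Figure D3:**
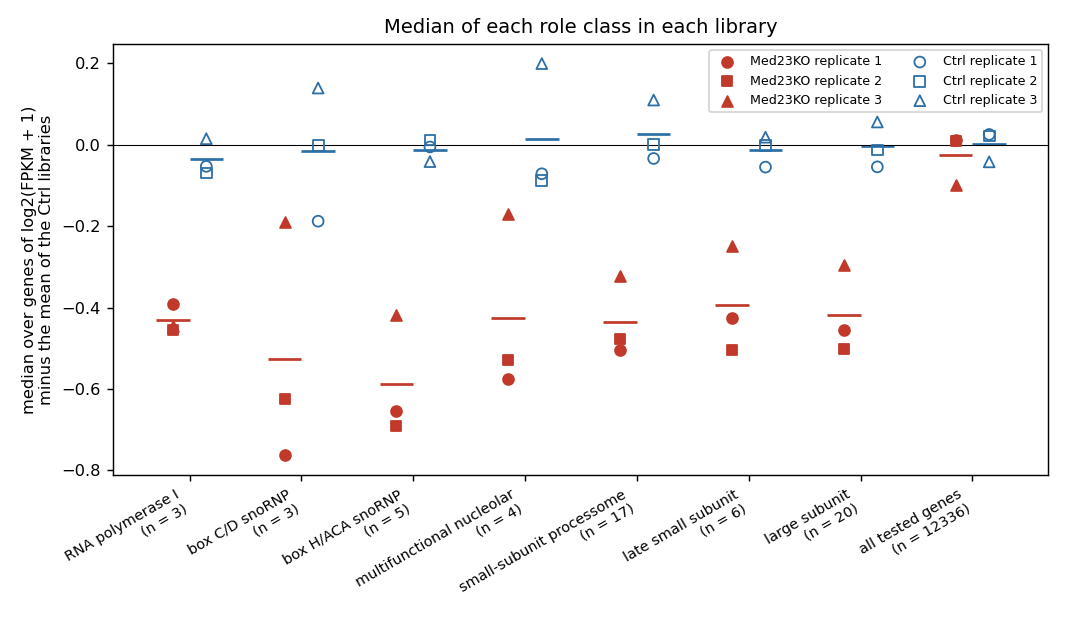
Median over the genes of each role, and over all 12336 tested genes, of log2(FPKM + 1) minus the Ctrl mean, for each library (filled red, Med23KO; open blue, Ctrl; shapes are replicates, bars the mean of the 3 libraries). In each role the 3 Med23KO medians lie below the lowest Ctrl median, if only just in box C/D, while those of all tested genes lie between -0.10 and 0.03 in both genotypes.

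Taken by library, the median of the 58 factors relative to the Ctrl mean was -0.50, -0.52 and -0.32 (log2) in Med23KO replicates 1, 2 and 3, and -0.04, 0.00 and 0.07 in Ctrl replicates 1, 2 and 3. Med23KO replicate 3 was thus the closest to Ctrl, and Ctrl replicate 3 was the highest of its group. The medians of the roles were not alike in this. For RNA polymerase I the medians were -0.39, -0.46 and -0.44 in Med23KO and -0.05, -0.07 and 0.01 in Ctrl, where Med23KO replicate 3 lay between the other Med23KO libraries. These Med23KO medians are the values of Polr1a alone, while Polr1b and Polr1e were highest in replicate 3 among the Med23KO libraries. For box C/D they were -0.76, -0.62 and -0.19 in Med23KO and -0.19, 0.00 and 0.14 in Ctrl.

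This shift was shared by the genotypes gene by gene. In 34 of the 58 factors replicate 3 was above the mean of replicates 1 and 2 in both genotypes, and in 12 it was below it in both, where the counts over all 12336 tested genes were 3440 and 6380. The mean shift was largest in Nop58, at 0.67 (log2), Gnl3, at 0.57, and Wdr43, at 0.52, and lowest in Imp3, at -0.41. Across the 58 factors, the shift in Med23KO and the shift in Ctrl had a Spearman rho of 0.85, against 0.72 over all tested genes, and the mean shift and the GC content of the transcript had a rho of -0.78, against -0.62 over 11922 tested genes with a GC value. These are descriptions across genes of the same 6 libraries, and genes are not independent replicates. The log2 fold change itself had a rho of -0.22 with GC content among the factors. Of the 34 factors that were higher in both replicates 3, limma called 3, and their median SE was 0.149, while of the 12 whose shift differed in sign between the genotypes it called 7, with a median SE of 0.092. The median log2 fold changes of these groups were -0.46 and -0.50. The 12 that were lower in both replicates 3 had 1 call and a median of -0.42. The shift of replicate 3 that formed these groups is itself part of the spread behind the SE. Differences between the groups in SE and in calls therefore follow in part from how they were formed.

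When the values of each library were corrected for transcript GC, 35 of the 58 factors were called lower, and without replicate 3 in both genotypes 39 were, each time with all of the 11. Calls over all genes rose too, to 5.54% of tested genes lower with the correction and 3.91% without replicate 3. Both settings were chosen after seeing the data. The part of GC content or of library preparation in the replicate 3 shift was not tested.

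**Figure D4:**
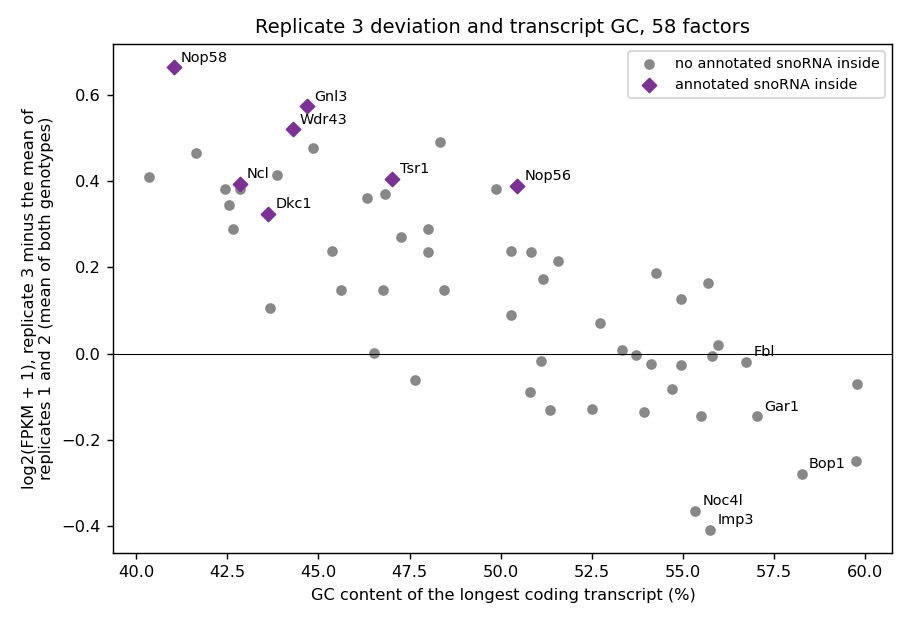
GC content of the longest coding transcript (%) against the log2(FPKM + 1) of replicate 3 minus the mean of replicates 1 and 2, averaged over both genotypes, for each of the 58 factors. Purple diamonds are the 7 genes with an annotated snoRNA inside, all of which lie above 0, and the points run downward with GC content (Spearman rho of -0.78).

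Some of the factors also carry snoRNAs, the guide RNAs of the snoRNPs, inside their own genes. In the GENCODE annotation 7 of the 58 (12.1%) had at least 1 snoRNA gene within them on the same strand, against 217 of 11922 tested genes (1.82%). They were Nop56, Nop58, Dkc1, Ncl, Gnl3, Wdr43 and Tsr1. Each of these 7 was higher in replicate 3 of both genotypes, as were 34 of all 58 factors. Of the 7, 0 were called in limma, with 6 lower at an unadjusted p under 0.05 and all 7 called in the authors' deposited table. Their log2 fold changes ran from -0.60 for Gnl3 to -0.46 for Ncl. The libraries were made from poly(A) RNA, so the snoRNAs themselves were not described.

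The wider pathway was described with 131 further genes, listed by role, all of which were tested. Of these, 2 were lower in Med23KO at a limma adjusted p under 0.05 and 0 were higher. Over all tested genes 1.42% were called lower and 1.49% higher. At an unadjusted limma p under 0.05, 53 of the 131 were lower and 0 higher, where 10.9% of all tested genes were lower and 8.84% higher. The median log2 fold change of the 131 was -0.30, and 126 values were negative. In 55 every Med23KO library was below every Ctrl library, which was so for 14.7% of tested genes. Both called genes act in large-subunit assembly. Ppan had 21.1 ± 2.28 FPKM in Med23KO and 34.3 ± 3.77 FPKM in Ctrl (SD, n = 3 each; log2 fold change -0.67, adjusted p = 0.0368 in limma), and Nol9, an RNA kinase of pre-ribosomal RNA processing, had 19.4 ± 0.555 FPKM in Med23KO and 28.9 ± 2.72 FPKM in Ctrl (SD, n = 3 each; log2 fold change -0.54, adjusted p = 0.0378 in limma). Without Med23KO replicate 3 the count was 17, and in each of the other 5 fits without 1 library it was 0.

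The remaining lists had 0 calls in limma. The 18 other genes of RNA polymerase I transcription had a median log2 fold change of -0.25, with 5 lower at an unadjusted p under 0.05 (10.9% of all tested genes), and the lowest adjusted p was that of Tcof1 (treacle, a cofactor of ribosomal RNA transcription), at 13.5 ± 0.857 FPKM in Med23KO and 20.0 ± 2.59 FPKM in Ctrl (SD, n = 3 each; adjusted p = 0.0652 in limma). The 12 other snoRNP genes had a median of -0.30 and 6 at that unadjusted level, led by the assembly ATPase Ruvbl1 (28.5 ± 1.86 FPKM in Med23KO and 39.2 ± 2.88 FPKM in Ctrl, SD, n = 3 each; adjusted p = 0.0652 in limma). The 39 other small-subunit genes had a median of -0.27 and 11 at that level, led by the processome protein Pwp2 (12.7 ± 0.567 FPKM in Med23KO and 17.9 ± 1.01 FPKM in Ctrl, SD, n = 3 each; adjusted p = 0.0534 in limma). The 14 genes of the RNA exosome, which degrades and trims RNA, had a median of -0.30 and 7 at that level, led by Exosc8 (21.8 ± 1.67 FPKM in Med23KO and 29.7 ± 2.42 FPKM in Ctrl, SD, n = 3 each; adjusted p = 0.0796 in limma). The medians of all 5 lists lay above those of the 58 factors' roles and below that of all tested genes, and the difference between the 58 and the 131 was not tested.

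**Figure D5:**
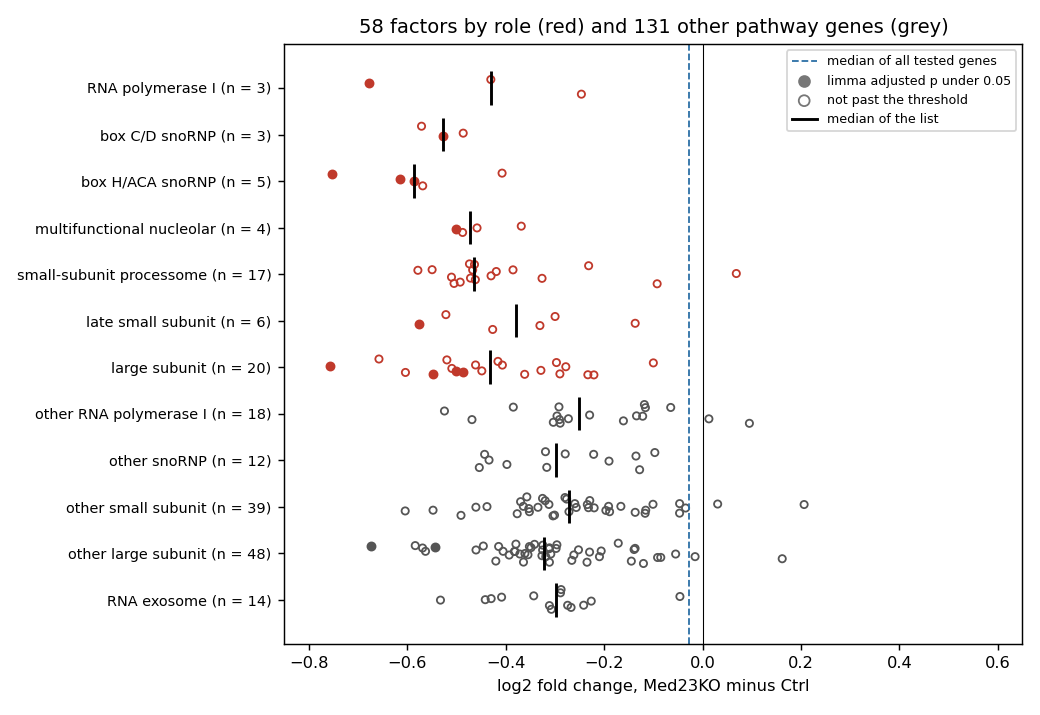
Log2 fold change of Med23KO minus Ctrl for the 58 factors by role (red) and for 131 other pathway genes by list (grey), 1 point per gene, filled where the limma adjusted p is under 0.05. The medians of the 58 factors' roles (black bars) run from -0.59 to -0.38 and those of the other lists from -0.32 to -0.25, beside -0.03 for all tested genes (dashed).

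Myc, whose protein is a known activator of many of these genes, stood at 23.5, 21.5 and 16.3 FPKM in Med23KO and 45.1, 37.8 and 33.4 FPKM in Ctrl. The groups did not overlap, and Myc was lower in Med23KO (log2 fold change -0.90, SE 0.164, adjusted p = 0.0368 in limma), a call that in fits without 1 library held only without Med23KO replicate 3 (limma adjusted p between 0.0188 and 0.162). With no filter on low values its adjusted p was 0.0761 in limma. The part of Myc in the level of the 58 factors was not tested.

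Of 21 markers of myogenic differentiation, 18 were tested, and 6 were higher and 0 lower in Med23KO at a limma adjusted p under 0.05. The 6 were Tnnc1, Mef2c, Myl4, Actn2, Gm7325 and Actc1. Actn2 and Gm7325 averaged 0.804 and 0.363 FPKM in Ctrl, so they reached the mean of 1 FPKM only through the Med23KO libraries. Each of the 6 calls held in only 1 to 3 of the 6 fits without 1 library. Over all tested genes 1.49% were called higher. No marker of the list was lower at an unadjusted p under 0.05, and the median log2 fold change was 1.07. In 13 markers every Med23KO library was above every Ctrl library, which was so for 1233 of the 12336 tested genes. Of the 18, 2 had negative log2 fold changes, Tnni1 with -0.68 and Tnnt2 with -0.47, which were not called in limma. The authors' deposited table called 17 of the 18 at a q under 0.05, and these 2 were the ones lower there. At that q, 1926 of the 12336 tested genes were called in either direction. The summed level of the 21 markers was 525 to 555 FPKM in Med23KO and 278 to 337 FPKM in Ctrl. Of 12 fibro-adipogenic progenitor markers, 8 were tested and 0 were called, with 3 higher at an unadjusted limma p under 0.05. At that level 8.84% of all tested genes were higher. The log2 fold changes of these 8 markers were all positive, with a median of 0.48. The authors' deposited table called 4 of them at a q under 0.05, with 0 lower. In 3 of them every Med23KO library was above every Ctrl library, against 1233 of the 12336 tested genes. The sums were 221 to 336 FPKM in Med23KO and 162 to 214 FPKM in Ctrl, of which Col3a1 gave 183 to 286 FPKM in Med23KO and 138 to 182 FPKM in Ctrl. Of these markers, Pi16 and Tcf21 were listed at 0 in 4 and 5 of the 6 libraries. Sums of the 11 muscle stem cell markers were 1092 to 1868 FPKM in Med23KO and 1265 to 1960 FPKM in Ctrl, of which Myod1 gave 551 to 964 FPKM in Med23KO and 702 to 1170 FPKM in Ctrl. Of these 11, 8 were tested and 0 were called in limma, with 1 lower and 1 higher at an unadjusted p under 0.05. Itga7, the lower one, averaged 58.1 ± 6.96 FPKM in Med23KO and 98.5 ± 17.2 FPKM in Ctrl, without overlap (SD, n = 3 each). Cdh15, the higher one, averaged 32.0 ± 10.2 FPKM in Med23KO and 18.2 ± 4.57 FPKM in Ctrl, with overlap (SD, n = 3 each). The authors' deposited table called 3 of the 8 at a q under 0.05, with 1 lower. Endothelial, leukocyte, smooth muscle and pericyte, and Schwann cell markers summed to at most 7.29, 5.27, 25.9 and 2.09 FPKM in Med23KO and 10.7, 5.72, 33.1 and 2.08 FPKM in Ctrl, and no marker was at 0 in all 6 libraries. The part of differentiation or of other cells in the level of the 58 factors was not tested.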

How the data were processed

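Poly(A) RNA of 3 Med23KO and 3 Ctrl cultures was sequenced from strand-specific libraries made with an NEBNext directional kit, per the labels' protocols. The authors used FastQC, cutadapt, STAR, Cuffdiff and the mm10 build, per the submitters' processing notes. Neither versions, nor the annotation, nor the strand setting of the counting was stated there. The authors deposited 1 table with the FPKM of each library and their own Cuffdiff comparison, whose q-values were used only as the authors' calls.

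FPKM are not counts, and steps of 1 fragment could not be recovered (at most 11% of 427 low genes shared 1 ratio, tolerance 0.03 log2), so depth is unknown and precision rests on the spread of 3 libraries a group. Genes listed by Ensembl identifier alone (12368, of which 12316 matched) were given symbols first, and 10 pathway genes and 2 markers were found under older symbols.

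Values were tested as log2(FPKM + 1) in R 4.3.3 (limma 3.58.1), two-sided, with genotype as the factor and a trend of variance on level, over the 12336 genes whose mean reached 1 FPKM. The p-values were adjusted by the Benjamini-Hochberg method over all of them, and 0.05 was the threshold. On this scale the fold change of a low gene is understated. An exact permutation test of 3 against 3 cannot go below p = 0.1, so none is given. Gene coordinates, transcript GC and snoRNA genes came from GENCODE for mm10, and promoters from RefSeq (GRCm38.p6). An exon of 24 factors, among them the called Mybbp1a, Nhp2, Noc2l and Rrp1b, overlaps a gene on the other strand, and 10 factors, among them Fbl, have a pseudogene with at least 95% identity over at least 200 bases, so these values are uncertain to that extent. The alternatives covered the pseudocount, the filter, scaling, the variance model, library weights, each library left out, a replicate block, the authors' q-values and, added after seeing the data, replicate 3 and GC content.

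The 58 factors, the lists and the tests were chosen with earlier results of these data known. Values in every library are given for each factor past the threshold and for the most and least negative of each role, with others of interest named after their values were seen. Of the other pathway genes, those called, or the one with the lowest adjusted p of a list, are named.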

Additional observations from a re-analysis of the deposited data

How the results depend on the processing

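With a main count of 11 factors called lower, the 2 other pseudocounts, the filter at 5 FPKM, quantile normalization, median scaling and no trend gave 9 to 15. The factors, the other pathway genes and all genes gave 7, 0 and 157 calls with no filter, 6, 1 and 646 with equal FPKM sums without Rmrp, 48, 75 and 3345 with library weights, 43, 39 and 2054 by the authors' q-values, 34, 17 and 1144 without Med23KO replicate 3, 39, 16 and 1209 without replicate 3 in both groups and 35, 31 and 1026 with the GC correction. The 2054 by the authors' q-values also counted genes below the filter, and 1926 of them were tested genes. The pathway counts were 4 with median scaling (549 of all genes) and 1 with no trend. Over the 6 fits without 1 library the counts ran from 0 to 34, 0 to 17 and 13 to 1144. In the limma fits with 0 pathway calls, 28 to 53 of those genes passed an unadjusted p under 0.05. Of the 359 calls over all genes, 51.3% were higher in Med23KO, against 63.9% with median scaling, 75.7% with equal sums, 35.6% with the GC correction, 36.7% with it and the block, 42.8% with the block, and 23.1% to 65.5% without 1 library. The factors' median was -0.37 with equal sums, where RNA polymerase I, the processome and the large subunit had -0.34, -0.37 and -0.34. RNA polymerase I had -0.38 with a pseudocount of 5, -0.55 with the filter at 5 FPKM, which leaves out Polr1e, and -0.39 with quantile normalization. Box H/ACA ran from -0.71 to -0.54 and box C/D from -0.72 to -0.48 in the fits without 1 library. Utp3 was 0.00 with equal sums and -0.18 to 0.02 in the fits without 1 library, and Imp3 ran from -0.09 (Med23KO replicate 1 left out) to 0.26 (Med23KO replicate 3 left out), with -0.02 when Ctrl replicate 3 was left out. The cause of these changes was not tested. Same-numbered libraries correlated in their deviations with r = 0.437, -0.016 and 0.563, and not every library correlated best with its own number. Whether the numbers pair the libraries cannot be settled from these correlations, since the deviations within a group always sum to 0. The replicate block gave 51 (15 of the 17 processome factors, 12.8% of tested genes lower), 75 and 2757 calls, and with the GC correction 53, 80 and 3063. Depth is unknown.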

Other observations

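Levels of proteins of the same particle were also set against each other within each library, for 11 pairs chosen after their values had been seen, so these are descriptions with no test. In 9 of the 11 the genotypes overlapped. The ratio of Nop56 to Fbl was 0.935, 0.968 and 1.37 in Med23KO and 0.932, 1.15 and 1.27 in Ctrl, and that of Nop58 to Fbl was 0.73, 0.864 and 1.25 in Med23KO and 0.704, 0.822 and 1.26 in Ctrl. In both box C/D ratios, replicate 3 was the highest library of each genotype. The ratio of Imp3 to Imp4, partners in the U3 snoRNP, was 3.58, 2.84 and 2.07 in Med23KO and 1.97, 1.87 and 1.80 in Ctrl, and every Med23KO library was above every Ctrl library. The ratio of Rpf2 to Rrs1, partners in the 5S RNP loading complex, was 0.566, 0.577 and 0.722 in Med23KO and 0.510, 0.430 and 0.520 in Ctrl, also without overlap. Imp3 and Rpf2 each have a near-identical pseudogene, so reads could have been divided between gene and pseudogene. Whether the ratios differ between the genotypes beyond their spread was not tested.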
